A study of Mus musculus with 18 samples.

Results

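The genes described here encode the nuclear subunits of the mitochondrial respiratory chain and of ATP synthase. They were chosen by symbol alone, as every gene whose symbol begins with Nduf, Uqcr, Cox4 to Cox8 or Atp5, or is Sdha, Sdhb, Sdhc or Sdhd, and the rule used no measured value. It found 89 genes among the 19938 genes with a probe set of their own. They comprise 34 complex I subunits, 7 complex I assembly factors, Ndufa4 with its relative Ndufa4l2 (2 genes), 4 subunits of complex II, 8 of complex III, 16 of complex IV, the supercomplex factor Cox7a2l (1 gene) and 17 of complex V, the ATP synthase. Probe sets whose annotation joined several symbols (6 in all, for Ndufb4 with Ndufb4b, Cox7c with Gm12338, and Ndufs5 with its pseudogene) were kept apart.

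Expression was read on 18 one-colour arrays from B16 F10.9-4, a mouse melanoma line in which doxycycline turns on LIP, a shortened form of C/EBPβ (the product of Cebpb, a transcription factor) without most of the activating region. Tunicamycin, which blocks N-linked glycosylation and so loads the endoplasmic reticulum with misfolded protein, was given for 0, 5 or 12 h, with or without doxycycline beforehand. This gave 6 groups, namely a vehicle control, both tunicamycin times without doxycycline, doxycycline with no tunicamycin, and doxycycline ahead of either tunicamycin time, with 3 arrays per group from 3 independent experiments. Experiments are numbered here by the replicate number in the labels. All groups are the same engineered line, no vehicle array at 5 or 12 h and no doxycycline array of cells without the LIP construct was used here, and so time in culture cannot be told apart from tunicamycin, nor doxycycline itself from LIP.

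Electrons from NADH enter the chain at complex I and those from succinate at complex II, pass through complex III and cytochrome c to oxygen at complex IV, and the proton gradient that complexes I, III and IV build drives ATP synthase. All subunits of complex II and most of the other complexes are made from nuclear genes and imported, while a few core subunits are encoded in mitochondrial DNA. The nuclear genes are known for promoters with sites for NRF1 and for ETS factors such as GABP, and several subunits have paralogues restricted to muscle, testis or other tissues.

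The values, log2 intensities that the authors computed by RMA, are background-corrected, quantile-normalized and summarised per probe set. A level is comparable between arrays for 1 gene but not between genes, and a change is a difference of mean log2 intensities with its standard error (SE). A change was called when limma's adjusted p, over all 19938 genes, was under 0.05. Precision is limited by the number of arrays, and the median SE over the 89 genes was 0.057. Of the 89 genes, 87 had a mean level above 6.07, the 95th percentile of 1194 olfactory and vomeronasal receptor genes taken as silent, and Cox6b2 and Cox7b2 lay below it. Since RNA was taken from whole cultures, fewer cells of a kind and less RNA per cell cannot be told apart.

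The arrays matched their labels by Cebpb and Ddit3, while Hspa5, also read as a check of tunicamycin, had moved at 12 h but not at 5 h without doxycycline. Cebpb was at 9.33 ± 0.126 (SD, n = 3) in vehicle and 11.18 ± 0.137 (SD, n = 3) with doxycycline, though its probe set reads all isoforms. Tunicamycin alone raised it by 0.96 at 12 h, where doxycycline added 1.22. Ddit3 (CHOP, a marker of endoplasmic reticulum stress) was 1.17 higher after 5 h of tunicamycin. After 12 h it was 2.89 higher (SE 0.084, limma adjusted p = 1.34e-14). Hspa5 changed by -0.01 at 5 h (adjusted p = 0.93) and rose by 0.69 at 12 h. Arrays of a group correlated at 0.993 to 0.998. All 10 melanocyte lineage markers had mean levels above that of the silent receptors. Of the markers of other cells, 0 of 3 epithelial, 1 of 2 endothelial (Cdh5), 1 of 3 immune (Cd68) and 2 of 2 fibroblast markers did, and the summed log2 level of the immune markers lay between 17.7 and 18.7 over the 6 groups, while that of the melanocyte markers lay between 108.1 and 116.1. The part of either in the results below was not tested.

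Tunicamycin for 12 h lowered a portion of the respiratory chain genes, led by 1 subunit each of complexes III and II, and raised 1 muscle isoform strongly. Of the 89 genes, 23 fell and 3 rose, where 15.8% of all 19938 genes were called lower and 11.9% higher. The 23 are 25.8% of the genes and the 3 are 3.37%. The median change was -0.07 against 0.00 over all genes, and 50 of the 89 genes (56.2%) differed by under 0.1, close to the 53.7% of all genes that did. Every complex held genes that fell, but not in like shares. They were 6 of 34 complex I subunits (17.6%), 3 of 7 assembly factors (42.9%) and 1 of 4 complex II genes (25%). They were also 3 of 8 complex III (37.5%), 2 of 16 complex IV (12.5%) and 7 of 17 ATP synthase genes (41.2%), with Ndufa4 besides. The share of complex I subunits was near the 15.8% of all genes, and that of complex IV was below it. The genes that rose were Cox6a2 and Cox7a1 of complex IV and Uqcrq of complex III.

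In complex III, the levels of Uqcrh, the hinge protein that sits beside cytochrome c1, were 11.98, 12.02 and 12.01 in vehicle in experiments 1, 2 and 3, 11.86, 11.77 and 11.90 after 5 h of tunicamycin, and 11.19, 11.31 and 11.14 after 12 h. Each 12 h array lay below each vehicle and 5 h array. Uqcrh fell by 0.79 at 12 h (SE 0.059, 1.73-fold lower, limma adjusted p = 5.45e-09). Uqcrfs1, the Rieske iron-sulfur protein that passes electrons to cytochrome c1, was at 9.96, 10.06 and 10.05 in vehicle and 9.58, 9.81 and 9.59 at 12 h. These groups did not overlap either, and it fell by 0.37 (SE 0.064, adjusted p = 0.000154). Uqcr11, a small accessory subunit, fell by 0.30 (SE 0.061), and its 2 probe sets gave -0.30 and -0.33. Uqcrq, another small subunit, rose by 0.21 (adjusted p = 0.0298), but its vehicle and 12 h arrays overlapped. The core proteins Uqcrc1 and Uqcrc2 had changes of -0.10 and -0.05 and were not called.

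In complex II, which has no subunit from mitochondrial DNA, Sdhd, the small membrane anchor that helps to hold ubiquinone and haem, was at 11.33, 11.12 and 11.10 in vehicle, 11.23, 11.11 and 10.94 at 5 h and 10.54, 10.45 and 10.40 at 12 h. The 12 h arrays were the lowest of the 9 and lay apart from the rest. Sdhd fell by 0.72 (SE 0.087, 1.64-fold lower, adjusted p = 2.7e-06). Its partners in the complex, the flavoprotein Sdha, the iron-sulfur subunit Sdhb and the other anchor Sdhc, had changes of -0.09, -0.04 and -0.08, and none was called. Sdhd and Timm8b, an import chaperone of the inner membrane, are divergent neighbours, and Timm8b fell by 0.22 at 12 h (adjusted p = 0.000508). The divergent neighbour of Uqcrh, Lrrc41, changed by 0.07 (adjusted p = 0.397).

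**Figure D1:**
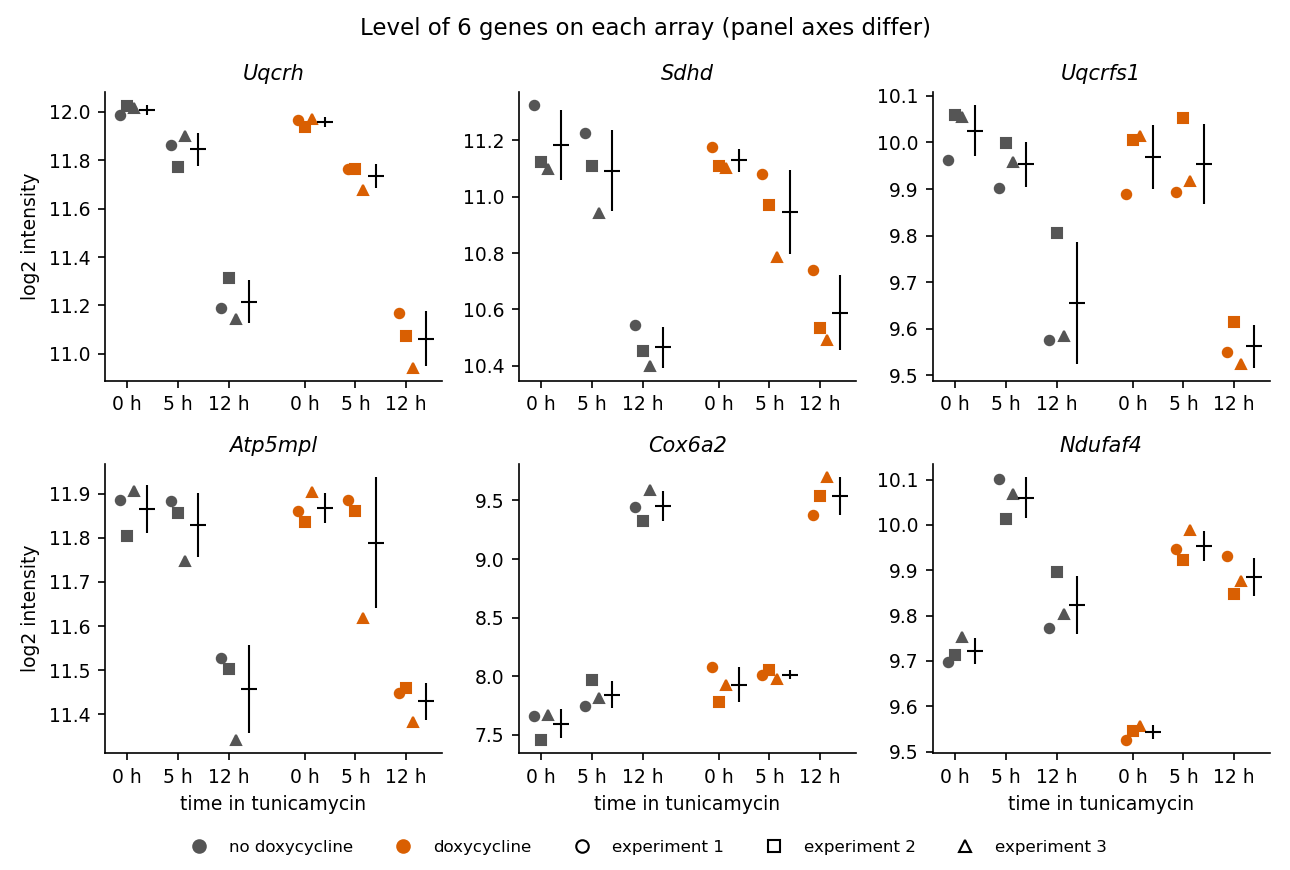
Level of 6 genes on every array, as log2 intensity, against hours in tunicamycin, without (grey) and with (orange) doxycycline; symbols mark the experiment and the black bar is the mean and SD of 3 arrays. Uqcrh, Sdhd, Uqcrfs1 and Atp5mpl are lowest at 12 h with and without doxycycline, Cox6a2 is highest at 12 h, and Ndufaf4 is highest at 5 h.

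The 7 ATP synthase genes that fell include members of the membrane sector, the central rotor and the peripheral stalk. Atp5mpl, a short proteolipid of the membrane sector, was at 11.89, 11.80 and 11.91 in vehicle and 11.53, 11.50 and 11.34 at 12 h, a fall of 0.41 (SE 0.067, adjusted p = 9.96e-05). Atp5k, subunit e at the dimer interface, was at 8.69, 8.71 and 8.71 in vehicle and 8.26, 8.31 and 8.42 at 12 h, a fall of 0.37 (SE 0.069, adjusted p = 0.000323). In both genes all 12 h arrays lay below all vehicle arrays. The c-ring is encoded by Atp5g1, Atp5g2 and Atp5g3, whose mature proteins are the same. Of these only Atp5g3 was called, with a fall of 0.31 (SE 0.050, adjusted p = 6.3e-05), while Atp5g1 and Atp5g2 had changes of 0.00 and 0.02. The difference between the 3 genes was not tested. Atp5l, subunit g and partner of subunit e, fell by 0.24 (adjusted p = 0.0103), and its 6 probe sets gave values from -0.24 to -0.20. Atp5c1, the rotating γ subunit, and Atp5o, the stalk protein OSCP, fell by 0.20 and 0.18, and Atp5j2, subunit f, fell by 0.17. Atp5b, the catalytic β subunit, and Atp5a1, the α subunit that alternates with it, had changes of -0.01 and -0.12 and were not called. The 10 complex V genes that were not called lay between -0.15 and 0.02.

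In complex I the genes called were accessory subunits. The largest fall was that of Ndufb7, a subunit of the membrane arm on the intermembrane space side, at 9.54, 9.45 and 9.45 in vehicle and 9.12, 9.15 and 9.08 at 12 h, without overlap. It fell by 0.37 (SE 0.063, adjusted p = 0.000142). Ndufb3, Ndufa5, Ndufa11, Ndufb8 and Ndufc2 also fell, by 0.33 to 0.13. The core subunits that carry flavin and iron-sulfur clusters were not called, with changes of 0.00 for Ndufs1, 0.02 for Ndufv1 and -0.08 for Ndufs8. The 28 complex I subunits not called lay between -0.14 and 0.05. Of the assembly factors, which leave the finished complex, Ndufaf5 fell by 0.25, Ndufaf2 by 0.23 and Ndufaf7 by 0.16, and Ndufaf1 had a change of -0.18 that was not called (adjusted p = 0.163). Ndufa4, first described in complex I and now placed in complex IV, fell by 0.26 (SE 0.055, adjusted p = 0.00116), while Ndufa4l2 had a change of 0.05.

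Complex IV held the largest change of the 89 genes, and most of its common subunits were not called. Cox6a2, the isoform of subunit 6A of heart and skeletal muscle, was at 7.66, 7.46 and 7.67 in vehicle, 7.75, 7.97 and 7.81 at 5 h, and 9.45, 9.33 and 9.59 at 12 h. The 12 h arrays stood far above all the others. The gene rose by 1.86 at 12 h (SE 0.092, 3.62-fold, adjusted p = 2.15e-11). Its widely expressed counterpart Cox6a1 had a change of 0.09 (adjusted p = 0.432). In RefSeq Cox6a2 overlaps the end of Itgad, an integrin gene, whose own probe set changed by -0.02 (adjusted p = 0.916). Cox7a1, the muscle isoform of subunit 7A, was at 6.14, 6.26 and 6.23 in vehicle and 6.47, 6.46 and 6.50 at 12 h, close to the level of silent receptors. It rose by 0.27 (SE 0.052, adjusted p = 0.000527) while the common isoform Cox7a2 fell by 0.22 (SE 0.058, adjusted p = 0.00772). Cox6b1, which joins the partners of the complex IV dimer, fell by 0.27 (SE 0.052, adjusted p = 0.000546), at 11.83, 11.81 and 11.86 in vehicle and 11.49, 11.65 and 11.56 at 12 h. Cox4i1, Cox5a, Cox5b and Cox8a, subunits of the common form, had changes of 0.04, -0.01, 0.00 and -0.03. The restricted isoforms Cox4i2, Cox6b2, Cox7b2, Cox8b and Cox8c had changes of 0.13, 0.00, -0.03, 0.00 and 0.03 and were not called.

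The count at 12 h depended on single arrays more than the leading genes did. It was 26 with all arrays, 16 without experiment 1, 14 without experiment 3 and 16 without only the 12 h tunicamycin array of experiment 3. Of the 26 genes, Uqcrh, Sdhd, Uqcrfs1, Atp5mpl, Atp5k, Atp5g3, Ndufb7, Ndufa5, Cox6b1, Uqcr11, Ndufa4, Cox6a2 and Cox7a1 were called in all 18 alternatives tried, apart from the stricter threshold. Each of the other 13 lost its call on leaving out 1 experiment or another. Ndufaf7 was not called in 10 alternatives, Ndufb8, Ndufc2 and Uqcrq in 8 each, Ndufaf5 in 7, Atp5c1, Ndufaf2 and Ndufb3 in 6 each, Atp5o in 5, Atp5j2 and Atp5l in 4 each, Cox7a2 in 3 and Ndufa11 in 2, with adjusted p up to 0.377, that of Ndufb3. Leaving out the 12 h tunicamycin array of experiment 3 ended 10 calls, those of Atp5c1, Atp5l, Atp5o, Cox7a2, Ndufaf2, Ndufaf5, Ndufaf7, Ndufb3, Ndufb8 and Ndufc2. The vehicle array of experiment 3 ended 8, those of Atp5j2, Atp5o, Ndufaf2, Ndufaf7, Ndufb3, Ndufb8, Ndufc2 and Uqcrq. The 12 h array of experiment 1 ended 7, those of Atp5j2, Ndufaf2, Ndufaf5, Ndufaf7, Ndufb8, Ndufc2 and Uqcrq. The vehicle array of experiment 1 ended 6, those of Atp5c1, Atp5l, Ndufaf2, Ndufaf5, Ndufaf7 and Ndufc2. The vehicle array of experiment 2 ended 5, those of Ndufaf5, Ndufaf7, Ndufb3, Ndufb8 and Uqcrq, and the 12 h array of experiment 2 ended 2, those of Atp5c1 and Uqcrq. The other Ndufa11 probe set gave -0.08 and was not called (adjusted p = 0.345).

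**Figure D2:**
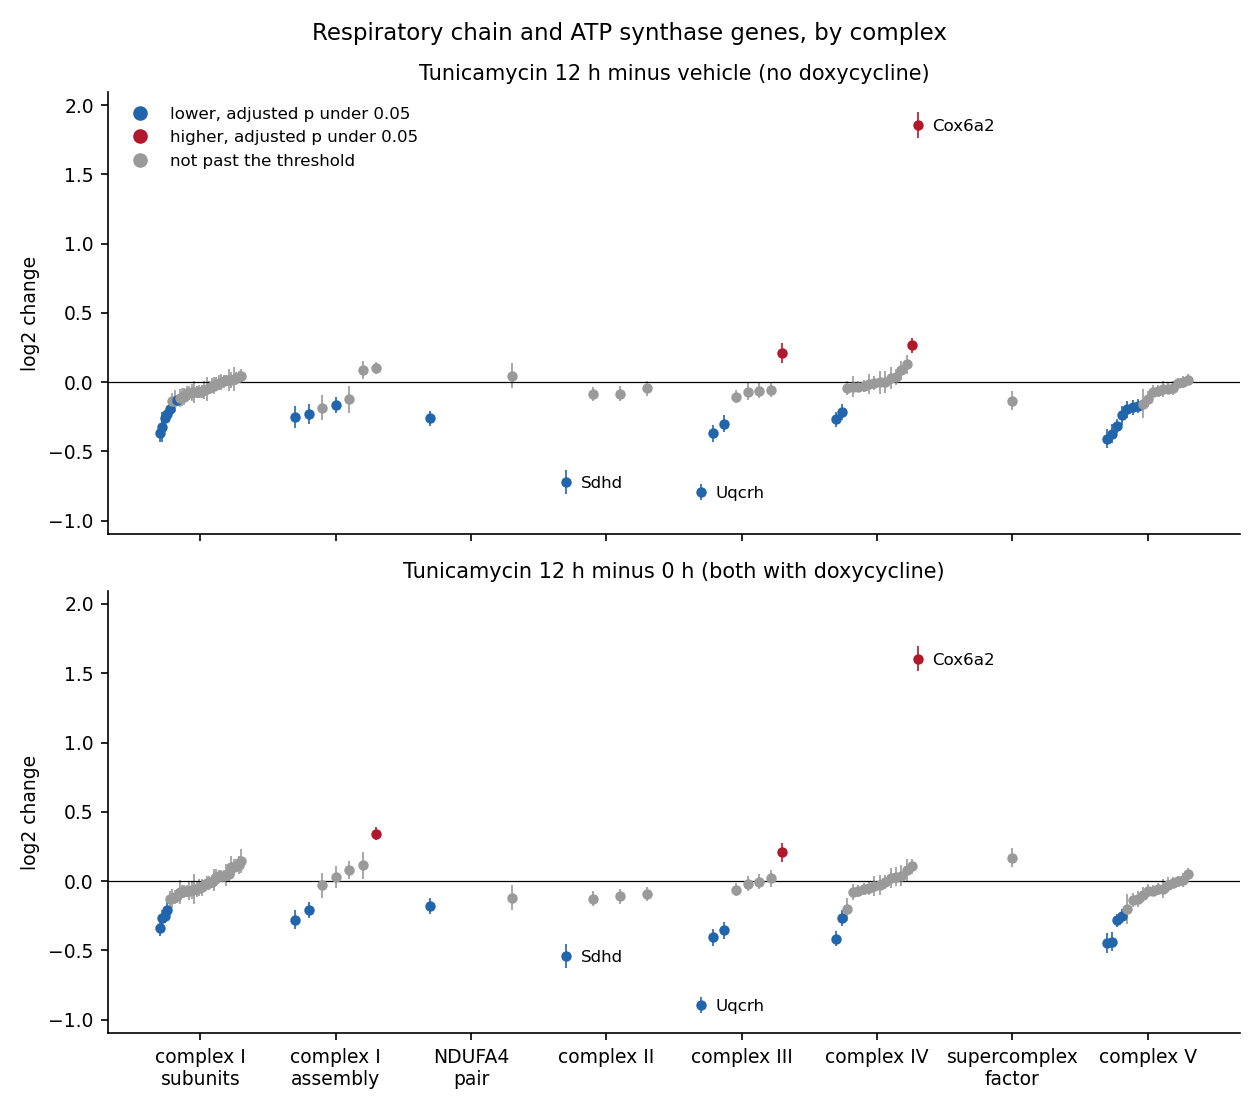
Log2 change of the 89 genes after 12 h of tunicamycin, without doxycycline (top) and with it in both groups (bottom), by complex; points are estimates, bars 1 SE, and colour marks the call. Uqcrh and Sdhd are the lowest points and Cox6a2 the highest in both panels, and most genes lie within 0.3 of 0.

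Promoter windows were read for the genes that led the fall, because the nuclear genes of the chain are known for shared promoter elements. RefSeq's table (GRCm38.p6) held a window from 250 bases before to 50 after the start for 73 of the 89 genes. Some genes have several windows, and a gene was counted if any of its windows held the letters. The 7 letters CCGGAAG, the core of an ETS site, were found on either strand in 18 of the 73 genes (24.7%). They were found in 7 of the 22 genes that fell at 12 h and have a window (31.8%), and in 11 of the 50 that were not called (22%). They stood in 13.6% of the 15563 genes that have a window and a probe set of their own, and in 9.93% of all 27025 genes with a window. The bases before the start are shown for 4 of the genes that fell and have the letters, and for Uqcrfs1, which fell and has none of the motifs searched. Other genes that fell and have none of them, such as Atp5g3, are not shown, so the sequences do not reflect the shares above. Capitals mark CCGGAAG or its reverse complement, and each sequence runs 5′ to 3′ on the strand of the gene.
Uqcrh, chr4:116075071-116075220, minus strand: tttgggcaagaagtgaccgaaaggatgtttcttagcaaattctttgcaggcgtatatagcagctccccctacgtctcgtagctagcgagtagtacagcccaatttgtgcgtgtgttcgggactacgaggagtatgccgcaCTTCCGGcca
Sdhd, chr9:50603850-50603900, minus strand, the stretch up to its neighbour Timm8b: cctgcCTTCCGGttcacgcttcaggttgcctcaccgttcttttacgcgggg
Cox6b1, chr7:30626115-30626264, minus strand: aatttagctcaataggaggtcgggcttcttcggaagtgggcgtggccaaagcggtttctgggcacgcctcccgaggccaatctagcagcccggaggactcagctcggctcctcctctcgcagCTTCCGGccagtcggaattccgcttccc
Ndufb7, chr8:83566608-83566757, plus strand: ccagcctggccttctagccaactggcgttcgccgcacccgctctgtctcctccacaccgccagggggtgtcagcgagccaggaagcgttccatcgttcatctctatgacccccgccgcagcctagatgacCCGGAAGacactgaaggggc
Uqcrfs1, chr13:30545317-30545466, minus strand: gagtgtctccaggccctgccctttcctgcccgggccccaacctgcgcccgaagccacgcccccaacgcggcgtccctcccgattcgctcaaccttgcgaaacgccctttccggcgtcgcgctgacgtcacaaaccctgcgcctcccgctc

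The core of the NRF1 site, GCATGCG, stood in 13 of the 73 genes (17.8%) and in 5.4% of genes with a window and a probe set. It stood in 5 of the 22 genes that fell (22.7%) and in 8 of the 50 genes not called (16%). That of YY1, AAGATGG, stood in 10 of the 73 (13.7%) and in 7.25% of genes with a window and a probe set. It stood in 2 of the 22 (9.09%) and in 8 of the 50 (16%). The core of the composite site of C/EBP and ATF factors, TGATGNAA, was found in 0 of the 73 genes, and in 3.62% of genes with a window and a probe set. CCGGAAG and AAGATGG can share the letters AAG, both strands were searched for all 4 motifs, and a match is a description of the letters and not a bound site.

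With doxycycline in both groups, 12 h of tunicamycin lowered genes that also fell without it. Of the 89 genes 17 fell and 3 rose, where 16.6% of all genes were called lower and 13.4% higher, so the share that fell, 19.1%, was close to that of all genes. All 17 were among the 23 that fell without doxycycline (100% of the 17 and 73.9% of the 23). The 2 comparisons share no array, but both use the same estimate of each gene's spread. The matching overlap over all genes was not computed, so how unusual this is cannot be told. The other 6 of the 23 were Atp5c1, Atp5l, Atp5o, Ndufaf5, Ndufb3 and Ndufc2, and none of them was called by the test of the difference between the 2 responses, given further on. Cox6a2 and Uqcrq rose in both. Across the 89 genes the 2 sets of changes had a Pearson correlation of 0.916, and of 0.818 over the 88 without Cox6a2. Of the 89 genes, 65 were on the same side of 0, and the share over all genes was not computed. Genes are not independent replicates and no test was made of this.

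Uqcrh was at 11.96, 11.94 and 11.97 with doxycycline alone, 11.76, 11.76 and 11.68 with 5 h of tunicamycin, and 11.17, 11.08 and 10.94 with 12 h. The 12 h arrays again lay below all others, and the fall was 0.89 (SE 0.059, 1.86-fold lower, adjusted p = 9.36e-10). Sdhd was at 11.18, 11.11 and 11.10 before and 10.74, 10.53 and 10.49 after 12 h, and fell by 0.54 (SE 0.087, adjusted p = 6.32e-05). Atp5k fell by 0.45, Atp5mpl by 0.44, Cox6b1 by 0.42 and Uqcrfs1 by 0.41, with adjusted p values between 4e-06 and 4.93e-05. Cox6a2 was at 8.08, 7.78 and 7.93 with doxycycline alone and 9.37, 9.53 and 9.70 after 12 h, and rose by 1.61 (SE 0.092, 3.04-fold, adjusted p = 1.33e-10). The count was 20 with all arrays and 13 without experiment 3. Uqcrq was not called in 9 of 18 alternatives (adjusted p up to 0.155).

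**Figure D3:**
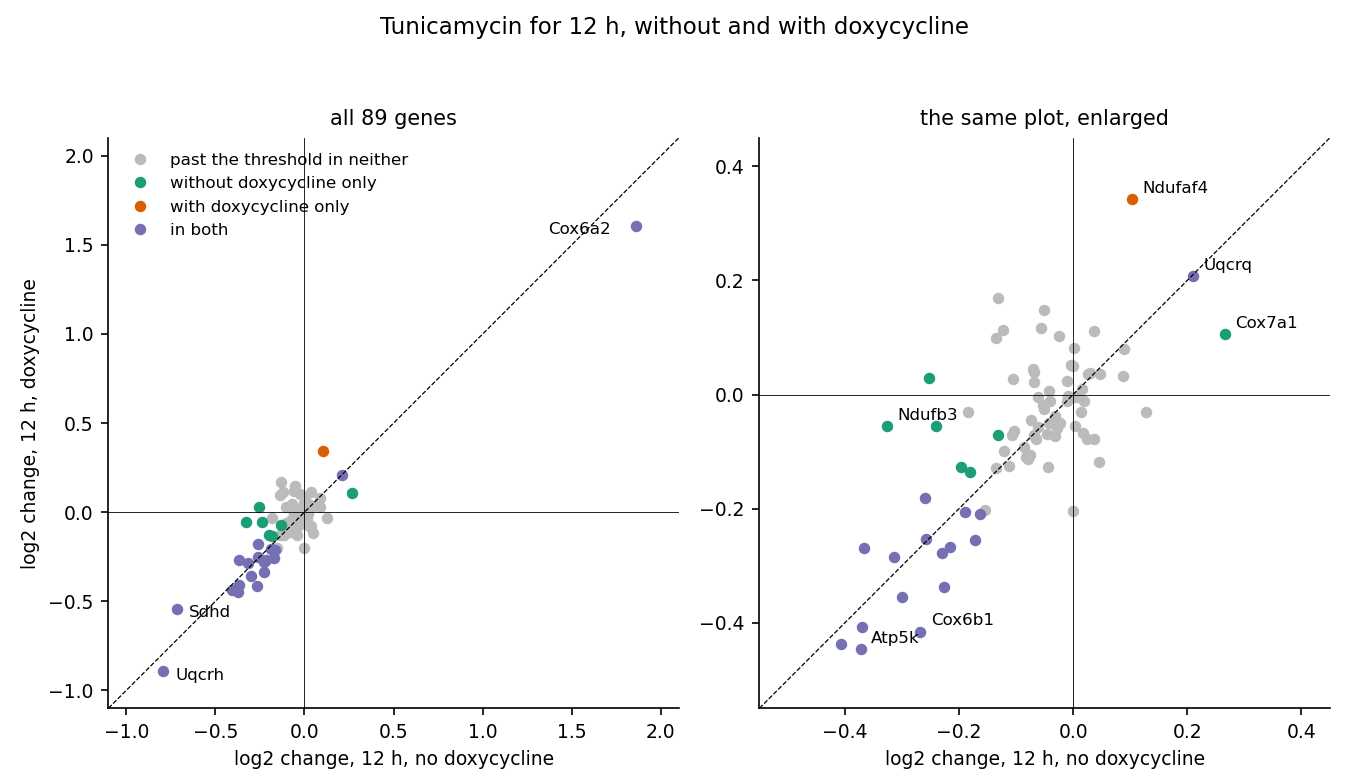
Log2 change after 12 h of tunicamycin with doxycycline in both groups (vertical) against that without it (horizontal), for the 89 genes, the right panel enlarging the middle of the left; the dashed line marks equal change and colour shows where the gene was called. Uqcrh and Sdhd lie toward the lower end of the line. Cox6a2 lies toward the upper end and below the line, with a rise of 1.86 without and 1.61 with doxycycline. Ndufaf4 is the single gene called in the comparison with doxycycline and not in that without it.

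After 5 h few of these genes had moved. Of the 89, 1 rose and 1 fell, where 4.08% of all genes were called higher and 4.94% lower. The gene that rose was Ndufaf4, an assembly factor of complex I, at 9.70, 9.71 and 9.75 in vehicle, 10.10, 10.01 and 10.07 at 5 h, and 9.77, 9.90 and 9.80 at 12 h. The 5 h arrays lay above all the others. It was 0.34 higher at 5 h (SE 0.046, 1.26-fold, adjusted p = 0.000118). Uqcr11 was the gene that fell, by 0.23 (SE 0.061, adjusted p = 0.0214), but it was not called in 10 of 18 alternatives, among them when any 1 vehicle array, or the 5 h array of experiment 1 or experiment 2, was left out (adjusted p up to 0.206). Although few were called, 70 of the 89 genes had a value below 0, as did 8702 of all 19938 genes. Their median was -0.05 against 0.02 over all genes. In the presence of doxycycline 1 gene rose and 2 fell at 5 h, where 6.54% of all genes were called higher and 5.56% lower. There 57 of the 89 had a value below 0, as did 10591 of all genes, with medians of -0.02 and -0.01. Across the 89 genes the 5 h changes without and with doxycycline had a Pearson correlation of 0.36, and no test was made of this. Ndufaf4 rose here too, from 9.53, 9.55 and 9.56 with doxycycline alone to 9.95, 9.92 and 9.99, by 0.41 (SE 0.046, adjusted p = 7.48e-06). Uqcrh fell by 0.22 (adjusted p = 0.0167) and Ndufv3, an accessory subunit of the NADH-binding arm, by 0.19 (adjusted p = 0.0356). The calls of Uqcrh and Ndufv3 were lost when the doxycycline array of experiment 1 or experiment 3, or the 5 h array with doxycycline of experiment 3, was left out, which left 1 gene called (adjusted p up to 0.198 and 0.428).

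Most of the fall of the leading genes came between 5 and 12 h. Against 5 h, 10 genes fell and 3 rose at 12 h, where 13.6% of all genes were called lower and 11.4% higher. This comparison shares its 12 h arrays with that against vehicle. Uqcrh fell by 0.63 (adjusted p = 1.34e-07), Sdhd by 0.63 (adjusted p = 1.65e-05), Atp5mpl by 0.37, Uqcrfs1 by 0.30, and Atp5g3 and Atp5k by 0.27. Cox6a2 rose by 1.61 (SE 0.092, adjusted p = 1.75e-10), Cox7a1 by 0.21, and Ndufaf3, an assembly factor, by 0.20 (adjusted p = 0.0311, not called in 10 of 18 alternatives). Ndufaf4 was among the 10 that fell. Repeating the quantile normalization gave 21 lower and 2 higher here, and leaving out experiment 1 or experiment 3 gave 8 genes in all. Atp5k lost its call here without experiment 1, Uqcrfs1 without experiment 3 and Cox7a1 without either (adjusted p up to 0.184, 0.0745 and 0.144). With doxycycline, 14 fell and 4 rose, where 15.4% of all genes were called lower and 10.9% higher. Uqcrh fell by 0.67 (adjusted p = 5.54e-08), Uqcr11 by 0.46, Uqcrfs1 by 0.39, Cox6b1 by 0.38, and Atp5mpl and Sdhd by 0.36. Cox6a2 rose by 1.52 (SE 0.092), Ndufaf3 by 0.26, Ndufa6, an accessory subunit of complex I, by 0.18, and Cox7a1 by 0.16. Ndufa6 and Cox7a1 were each not called in 7 of 18 alternatives (adjusted p up to 0.288 and 0.391), and Sdhd and Ndufaf3 each in 1 (adjusted p up to 0.079 and 0.253). Setting the array medians equal gave 16 lower and 2 higher.

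**Figure D4:**
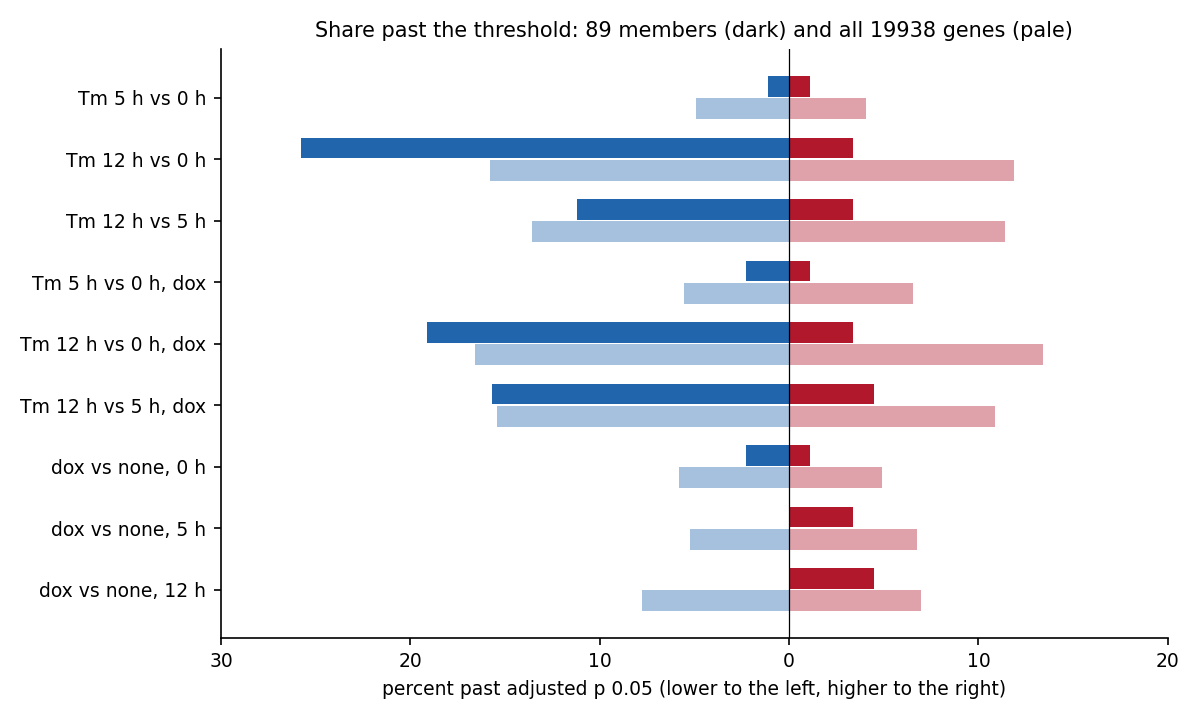
Percent of the 89 genes (dark) and of all 19938 genes (pale) called lower (blue, left) and higher (red, right) in the 9 pairwise comparisons. The 25.8% called lower after 12 h of tunicamycin stand beside 15.8% of all genes, and in each comparison a smaller share of the 89 than of all genes was called higher.

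Doxycycline moved few of these genes at any time. Before tunicamycin 1 rose and 2 fell, where 4.89% of all genes were called higher and 5.82% lower, and the median was 0.01. Cox6a2 rose by 0.33 (SE 0.092, 1.26-fold, adjusted p = 0.0236), and the arrays of the 2 groups did not overlap. Ndufaf4 fell by 0.18 (adjusted p = 0.0152) and Ndufab1, the mitochondrial acyl carrier protein, by 0.14 (adjusted p = 0.047). Cox6a2 and Ndufaf4 were each not called in 5 of 18 alternatives and Ndufab1 in 14, and 0 genes were called without experiment 1, without experiment 3 or without the doxycycline array of experiment 1, against 1 without the vehicle array of experiment 2, the vehicle array of experiment 3 or the doxycycline array of experiment 3. The 3 genes were 1 higher and 2 lower, and with array medians set equal 1 was higher and 1 lower.

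At 5 h of tunicamycin, doxycycline raised 3 of the 89 genes and lowered 0, where 6.76% of all genes were called higher and 5.21% lower, and 15 of the 89 (16.9%) had an unadjusted p under 0.05, as did 21.9% of all genes. Uqcr11 was at 9.83, 9.85 and 9.89 without and 10.08, 10.11 and 10.14 with doxycycline, a rise of 0.25 (SE 0.061, adjusted p = 0.00854). Its other probe set gave 0.06 (adjusted p = 0.793). Ndufa7, an accessory subunit of complex I, rose by 0.22 (SE 0.046, adjusted p = 0.00273), from 9.77, 9.79 and 9.88 to 10.02, 10.08 and 9.99, without overlap. Ndufa11 rose by 0.18 (adjusted p = 0.0467) and was not called in 11 of 18 alternatives, its other probe set giving 0.12 (adjusted p = 0.188). Without experiment 1 or without experiment 3, 1 gene was called. Repeating the quantile normalization gave 4 higher and 1 lower, a variance trend with robust estimation 5 and 2, and array weights 6 and 3.

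At 12 h of tunicamycin, doxycycline raised 4 and lowered 0, where 6.95% of all genes were called higher and 7.77% lower, and 16 of the 89 (18%) had an unadjusted p under 0.05, as did 24.4% of all genes. Cox7a2l, classed here as a supercomplex factor, was at 8.69, 8.87 and 8.69 without and 9.13, 9.06 and 8.97 with doxycycline. The groups did not overlap, and it was higher by 0.30 (SE 0.068, adjusted p = 0.00423), while its other probe set gave 0.14 (adjusted p = 0.591). Atp5l rose by 0.23 (adjusted p = 0.0238), Ndufa6 by 0.23 (adjusted p = 0.00996) and Ndufa7 by 0.19 (adjusted p = 0.00608). The 6 Atp5l probe sets gave 0.19 to 0.23, and 1 of them was called. Of 18 alternatives, Cox7a2l was not called in 2, Ndufa6 and Ndufa7 in 4 each and Atp5l in 8 (adjusted p up to 0.168, 0.13, 0.124 and 0.39). The count was 0 without experiment 1, 1 without experiment 3 and 10 without the doxycycline and tunicamycin 12 h array of experiment 2. The split also moved, to 6 higher and 4 lower without that last array, to 5 and 3 with a variance trend and robust estimation, and to 4 and 3 with array weights. Ndufa7 rose at both 5 and 12 h and had a value of 0.12 before tunicamycin (adjusted p = 0.12). The 3 doxycycline comparisons share no array with each other, but each shares arrays with the tunicamycin comparisons. The fall of Atp5l at 12 h of tunicamycin and its rise with doxycycline were read against the same 12 h arrays. Both calls were lost without the 12 h tunicamycin array of experiment 3. The fall of Uqcr11 at 5 h and its rise with doxycycline likewise share the 5 h arrays.

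The test of the difference itself found no gene of the 89 whose response to tunicamycin changed with doxycycline. For 5 h, 0 of the 89 were called by limma, where 0.0301% of all genes were called more positive with doxycycline and 0% more negative, and 1 of the 89 (1.12%) had an unadjusted p under 0.05, as did 8.28% of all genes. For 12 h, 0 were called, where 0.993% of all genes were called more positive and 0.848% more negative, and 4 of the 89 (4.49%) had an unadjusted p under 0.05, as did 12.3% of all genes. The smallest adjusted p at 12 h was that of Ndufaf4, whose rise was larger with doxycycline by 0.24 (SE 0.065, adjusted p = 0.0694). At 12 h it was 0.10 above vehicle (adjusted p = 0.115) without doxycycline and 0.34 above doxycycline alone (adjusted p = 7.98e-06) with it, and the difference was positive in all 3 experiments. The next was Cox7a2l, at 0.30 (SE 0.097, adjusted p = 0.148). For Uqcr11 at 5 h the difference was 0.34 (SE 0.087, adjusted p = 0.241), but its probe sets lay 0.22 apart in this value. At 12 h, leaving out experiment 2, or its 12 h tunicamycin array alone, gave 1 gene.

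Over the 9 pairwise comparisons 33 of the 89 genes (37.1%) were called at least once and 56 in none, where 46.4% of all 19938 genes were called at least once. The 33 comprised 10 of 34 complex I subunits, 5 of 7 assembly factors, 1 of 4 complex II genes, 4 of 8 complex III, 4 of 16 complex IV, 7 of 17 complex V, Ndufa4 and Cox7a2l. The largest change of any of the 56 was 0.31 in size. The 8 isoforms restricted to other tissues, taken alone, held 2 genes that rose (25%) and 0 that fell at 12 h against vehicle. These were Cox6a2 and Cox7a1, the latter close to the level of silent receptors. The other 81 genes held 1 that rose (1.23%) and 23 that fell (28.4%), where 11.9% of all genes were called higher and 15.8% lower. With doxycycline in both groups, Cox7a1 was not called. The 8 then held 1 that rose and 0 that fell, and the other 81 held 2 and 17, where 13.4% of all genes were called higher and 16.6% lower.

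Other genes of the pathway were read from lists of related functions. Of 45 further assembly factors and carriers of the chain, 6 rose and 6 fell at 12 h against vehicle (13.3% each), near the 11.9% and 15.8% of all genes, with a median of -0.02. Tmem126a and Foxred1, assembly factors of complex I, rose by 0.40 and 0.35, Lyrm7, which helps to insert the Rieske protein, rose by 0.34, and Cmc2, a complex IV factor, fell by 0.35. With doxycycline 8 rose and 3 fell (17.8% and 6.67%, against 13.4% and 16.6% of all genes), and Lyrm7 rose by 0.50. Of 25 genes of the tricarboxylic acid cycle and pyruvate dehydrogenase, 2 rose and 5 fell at 12 h (8% and 20%). The dehydrogenase subunit Dld and the kinase Pdk2, which inhibits pyruvate dehydrogenase, rose by 0.52 and 0.49, and the opposing phosphatase Pdp2 fell by 0.74 and the cycle enzyme Ogdh by 0.33.

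Of 23 genes of mitochondrial transcription and biogenesis, 4 rose and 5 fell at 12 h (17.4% and 21.7%, against 11.9% and 15.8% of all genes), with a median of -0.01. Tfb1m and Mterf3, which act on mitochondrial ribosomal RNA and transcription, rose by 0.74 and 0.46. Ppargc1b, a coactivator of the nuclear genes of the chain, and Esrra, the receptor it works with, fell by 0.55 and 0.36. Nrf1 had a change of -0.13 that was not called (adjusted p = 0.0898), and with doxycycline it fell by 0.33 (adjusted p = 0.000109). Gabpa, the DNA-binding part of GABP, rose by 0.16 (adjusted p = 0.0249). Under doxycycline in both groups, 9 of the 23 rose and 5 fell (39.1% and 21.7%, against 13.4% and 16.6% of all genes). Tfam, not called without it (0.17, adjusted p = 0.172), rose there by 0.63 (adjusted p = 1.05e-05), and Gabpa rose by 0.23. Ppargc1b fell there by 0.51, and Esrra had a change of -0.15 that was not called (adjusted p = 0.27). Of 17 mitochondrial chaperones and proteases 6 rose and 0 fell at 12 h (35.3% and 0%), both without and with doxycycline. The protease Lonp1 rose by 1.03, the chaperones Dnaja3 and Hspa9 by 0.91 and 0.52, and the protease subunit Clpp by 0.24. Doxycycline lowered Lonp1 by 0.59 at 12 h of tunicamycin (adjusted p = 2.74e-07). Of the genes encoded in mitochondrial DNA 1 was measured, ND3 of complex I, with values of -0.11 at 12 h against vehicle, 0.23 for doxycycline at 5 h (adjusted p = 0.0419) and 0.24 at 12 h (adjusted p = 0.0248), the last 2 called.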

How the data were processed

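The table analysed holds the authors' log2 intensities, processed by RMA in Partek per the submitters' processing notes, of 35557 probe sets on 18 one-colour arrays; the versions are not given in the sources used here. Of the probe sets, 21789 carry 1 symbol in the platform annotation, 1621 several and 12147 none, and the brightest single-symbol probe set was kept for each of 19938 genes. No array was dropped, no value was imputed, and 0 pairs of arrays were identical.

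Group means were fitted with limma (version 3.58.1, R 4.3.3) on all 18 arrays, with 12 residual and 5.99 prior degrees of freedom. The 11 contrasts, 2 of them interactions, were adjusted by Benjamini-Hochberg over all genes with a threshold of 0.05, and each adjusted p in the text is limma's. The procedure was tested on simulated data.

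Genes named are up to 6 with the largest rise and 6 with the largest fall per comparison among those called that moved one way in all 3 experiments, fixed examples of each complex, and up to 4 called genes of each related list; other names were chosen after their values were seen. The members, lists and tests were chosen with earlier results of these data known.

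Per the series design every independent experiment held all 6 groups; that the replicate number in the labels is the experiment's number is how the labels were read and is not stated. Over the 45 pairs of arrays of the same experiment the deviations from group means correlated at a median of 0.04 (-0.50 to 0.50), and 14 pairs were over 0.1. A fit with the experiment as a block was an alternative, as were the others given in the closing section. Fitting every annotated probe set as a row was added after the data were seen. RefSeq gene positions (GRCm38.p6) served to find neighbouring genes and promoter windows; proteins were not used here.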

Additional observations from a re-analysis of the deposited data

How the results depend on the processing

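The 11 counts of genes called were recomputed under every alternative, and none of the genes' changes reversed sign while called. Of the values of named genes under alternatives 9400 kept their side of the threshold, 158 lost the call and 91 gained it. Most of the 9400 belong to genes not called in that comparison with all arrays, which had no call to lose. All 158 belong to genes that were called there, so 158 of 9400 is not the share of calls lost. With the experiment as a replicate block the counts, in the order 5 h, 12 h and 12 h against 5 h of tunicamycin, doxycycline at 0, 5 and 12 h, the 3 tunicamycin contrasts with doxycycline, and the 2 interactions, were 2, 26, 14, 3, 3, 4, 4, 20, 19, 0 and 0; no count moved by over 1.5 times, and the block added Cox6b1 (12 h against 5 h, limma adjusted p = 0.0429), Sdhd (5 h with doxycycline, 0.0248) and Uqcrq (12 h against 5 h with doxycycline, 0.037). Leaving out each array or experiment in turn gave 1 to 2 genes at 5 h of tunicamycin, 14 to 24 at 12 h, 8 to 16 for 12 h against 5 h, 0 to 3 for doxycycline before tunicamycin, 1 to 3 at 5 h and 0 to 10 at 12 h, and, with doxycycline, 1 to 4 at 5 h, 13 to 25 at 12 h and 12 to 19 for 12 h against 5 h, with 0 and 0 to 1 for the interactions. Array weights gave 7 genes at 5 h, 21 for 12 h against 5 h, 7, 9 and 7 for doxycycline at 0, 5 and 12 h, and 1 for each interaction. A threshold of 0.01 gave 1 at 5 h, 15 at 12 h, 0 for doxycycline alone and 1 at 5 h with doxycycline. Leaving out dim genes gave 5 for doxycycline alone, 6 for doxycycline at 5 h and 1 for the interaction at 12 h. Repeated quantile normalization gave 23 for 12 h against 5 h and 5 for doxycycline at 5 h, and equal array medians also 5 for the latter. A variance trend with robust estimation gave 7 and 8 for doxycycline at 5 and 12 h, only the compared groups 1 and 1, and averaging all probe sets of each gene 1 for tunicamycin at 5 h and 2 for doxycycline at 12 h. The 5 h array of experiment 2 and the 12 h array of experiment 3 of tunicamycin were found to stand apart in an earlier analysis of these data. Without both, 1 gene was called at 5 h and 18 at 12 h, 3 higher and 15 lower. Leaving them out ended 8 of the 26 calls at 12 h, those of Atp5c1, Atp5o, Cox7a2, Ndufaf5, Ndufaf7, Ndufb3, Ndufb8 and Ndufc2. Other alternatives stayed within 1.5 times of the count, and the causes were not tested. Changes near 0.2 lie close to what 3 arrays a group can call.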
